A study of Arabidopsis thaliana with 9 samples.

Results

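Leaves of transgenic Arabidopsis labelled MeGRX360-OE were compared with leaves of plants that carried the empty vector pG1300. The comparison used 6 of the 9 Affymetrix ATH1 arrays of the series, chosen by their labels. The MeGRX360-OE arrays came from lines 5, 11 and 20, called replicates 1 to 3 below, and the vector arrays are numbered 1 to 3. The remaining 3 arrays, of MeGRXC15-OE plants (MeGRX232-OE in the labels), shared the estimate of the spread and served for 1 further comparison. All plants were grown under normal conditions at 22 °C with 12 h of light and 12 h of dark, and mature leaves were taken at 45 days. The design text speaks of 3 homozygous lines, and whether each vector array is a line of its own is not stated outright. The methods of the study give Col-0 as the background of the MeGRXC15 and empty vector plants. They describe fusions to GFP behind the 35S promoter, which is active in most tissues, for 6 cassava GRXs, MeGRXC15 and MeGRXC18 among them, but do not use the name MeGRX360 for any. The sources used here do not state the hour at which leaves were taken.

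MeGRX360 is a code name. Its digits match the end of the gene model listed for the cassava CC-type glutaredoxin MeGRXC18. Read in frame, its forward primer below encodes the amino acids TRIPSTA (single-letter code), a stretch of the protein listed for that gene model. The sources used here do not state the link in words. Glutaredoxins (GRXs) are small enzymes that use glutathione to reduce disulfides on other proteins. The CC-type, known as ROXYs in Arabidopsis, occurs only in land plants. Its Arabidopsis members bind TGA transcription factors, act in petal and anther development, and when overexpressed can repress jasmonate and ethylene (JA/ET) defence genes such as PDF1.2. The array carries Arabidopsis probes only, so the level of the cassava transgene was not measured. The only sequences at hand under the name MeGRX360 are the primers designed for its reverse-transcription PCR. They are shown because they are what ties the label to a transcript. The primers of MeGRX232, the transgene of the second group, stand beside them, all written 5′ to 3′.
MeGRX360-RT-pF: acacgcatcccgtccaccgc
MeGRX360-RT-pR: cgagtacatttctaccatta
MeGRX232-RT-pF: agagttacgcaattggcatc
MeGRX232-RT-PR: gcttgttctatttcccttcc

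Values are intensities on a linear scale, and differences are in log2 units, MeGRX360-OE minus vector. A gene is said to rise or fall where the adjusted p from limma was under 0.05, and the 3 arrays a group limit the precision. Log2 intensities correlated at 0.975 to 0.991 among the MeGRX360-OE arrays, at 0.980 to 0.989 among the vector arrays and at 0.938 to 0.956 between both groups, across probe sets. Probe sets are not independent of each other. MeGRX360-OE replicate 1 had a GAPDH 3′ over 5′ intensity ratio of 16.1, against 8.96 to 10.5 for the other 5 arrays of the comparison. The actin ratio was 14.8, 12.0 and 13.8 in MeGRX360-OE and 18.5, 17.9 and 19.2 in vector leaves, without overlap. The ubiquitin ratio was 3.12, 2.46 and 2.33 against 2.15, 2.37 and 2.89. The 25S rRNA control probe set was at 853, 1028 and 1073 in MeGRX360-OE and at 279, 343 and 350 in vector leaves. The 5S rRNA control was at 23.1, 19.8 and 16.2 against 7.56, 7.04 and 7.48. The part of these measures in the results was not tested. The reference genes UBC21, SAND and TIP41 differed by -0.28, -0.28 and 0.13 and did not pass. Of the marker lists, rubisco activase (RCA), of leaf mesophyll, was at 11324 in vector and 9182 in MeGRX360-OE leaves (geometric means, adjusted p = 0.0676), FAMA of guard cells at 19.2 to 23.0, and CLV3 of meristems at 6.05 to 7.98. Markers of flower, root, seed and vascular tissue had no probe set with a gene name here.

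MeGRX360-OE leaves differed widely from vector leaves. In whole leaves, fewer cells of a type and less RNA per cell cannot be told apart, and for the vector arrays the p-values rest on a spread that may be technical. Of 22746 probe sets, 3746 (16.5%) passed the test, 1534 (6.74%) higher and 2212 (9.72%) lower, while the median difference over all probe sets was 0.01. Among the calls past 4-fold the higher ones were more numerous, 315 against 133, and past 16-fold they were 34 against 2. The arrays of both groups did not overlap for 8056 probe sets (35.4%). A fold over 2 with an unadjusted p under 0.05 was met by 1963 probe sets (8.63%), 980 higher (4.31%) and 983 lower (4.32%), and a fold over 2 with an adjusted p under 0.05 by 1713 (7.53%). With 1 of the 6 arrays left out the calls numbered 2219 without vector replicate 2, 2389 without MeGRX360-OE replicate 3, 2455 without vector replicate 1, and 2845 to 3147 without one of the others. A gene name was available for 13513 probe sets from the platform annotation, of which 14.7% passed, 6.11% higher and 8.62% lower. It was available for 363 more only through the gene ontology (GO) table of the study. That table lists genes found to change in MeGRXC15-OE against these same vector arrays, and 67.5% of these 363 passed, 28.4% higher and 39.1% lower, so a gene named that way is no independent evidence of a direction. Such genes carry a dagger (†) below.

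**Figure D1:**
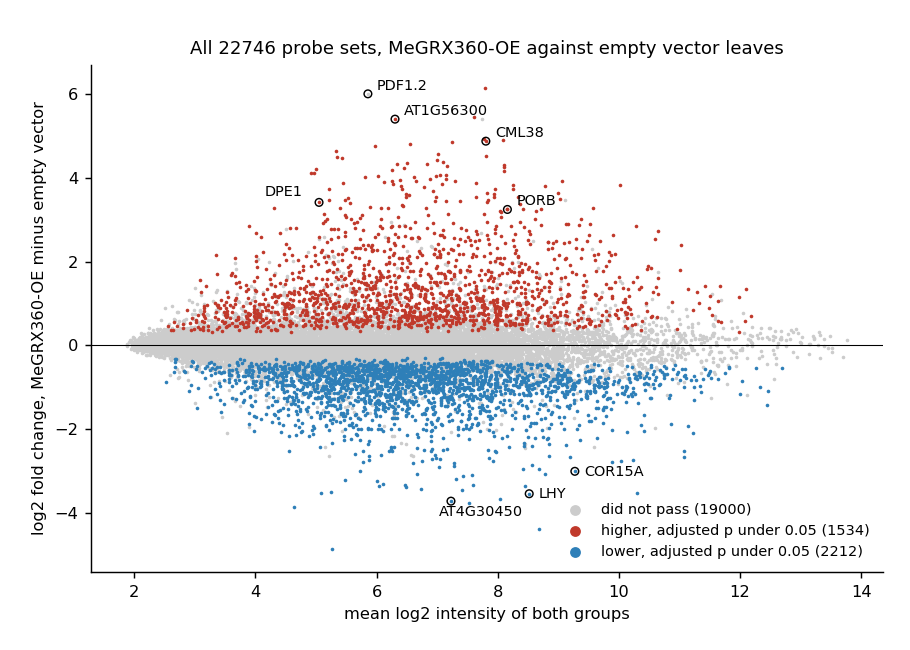
Difference between MeGRX360-OE and empty vector leaves (y axis, log2 fold change) against the mean log2 intensity of both groups (x axis), 1 point a probe set. The 1534 higher (red) and 2212 lower (blue) calls spread over the whole range of intensities, and PDF1.2, at the top, is grey because it did not pass.

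The largest rises were from low levels in vector leaves. AT1G56300, listed under protein folding in the GO table of the study, was at 666, 502 and 405 in MeGRX360-OE and at 13.5, 10.8 and 12.3 in vector leaves. All 3 lines were far above every vector array, with a rise of 5.40 (SE 0.22, adjusted p = 1.54e-05), the lowest adjusted p of the comparison. AT5G35735 followed, at 1298, 1079 and 1239 against 72.4, 37.7 and 23.0 (4.92, SE 0.37). The calmodulin-like calcium sensors CML38 and CML37 were in the same set, with rises of 4.88 (SE 0.27) and 4.21 (SE 0.40). CYP707A3†, an enzyme of abscisic acid (ABA) breakdown, was at 906, 989 and 1367 in MeGRX360-OE and at 20.5, 93.1 and 53.5 in vector leaves, a rise of 4.52 (SE 0.47, adjusted p = 6.81e-04). The other 7 of the 12 largest rises are loci without a symbol in the files: AT2G25735 (4.85), AT1G05575 (4.82), AT1G33760 (4.48, listed under ethylene signalling), AT1G69890 (4.43), AT3G23550 (4.35), AT5G28630 (4.32) and AT2G22880 (4.32). AT3G23550 was the most variable of them, at 232, 346 and 863 (SE 1.12, adjusted p = 0.0302). It did not pass without MeGRX360-OE replicate 2 or 3 or without any of the vector replicates (adjusted p up to 0.106), nor with a replicate block (adjusted p = 0.0515).

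The largest falls were headed by AT4G30450, at 48.7, 38.6 and 37.3 in MeGRX360-OE and at 552, 515 and 566 in vector leaves, a difference of -3.72 (SE 0.20, adjusted p = 4.41e-05). Both groups were tight and far apart. SAMDC2 (AT5G15950), whose enzyme feeds spermidine and spermine synthesis, was at 56.5, 89.4 and 76.5 against 1292, 1523 and 416 (-3.68, SE 0.44). SAMDC1, which encodes the same activity, was at 1989 to 2137 against 1989 to 2332 (-0.08, SE 0.10, adjusted p = 0.686). CLC-B†, of the chloride channel family, fell by 3.51 (SE 0.20), and TBL26 fell by 3.36 (SE 0.63). AT5G05960, listed under lipid transport, fell by 3.38 (SE 0.62). The others were LHY†, described with the clock, AT2G27420 (-3.54), ZW9 (-3.34), AT3G28270 (-3.34), AT5G20790 (-3.24), AT1G52000 (-3.20) and AT1G47400 (-3.01). ZW9 did not pass without any 1 of the 6 arrays (adjusted p = 0.0552 to 0.123). AT3G28270 did not pass without any 1 of them other than vector replicate 3 (adjusted p up to 0.101), and AT1G47400 not without MeGRX360-OE replicate 1 or 3 or vector replicate 1 or 2 (adjusted p up to 0.0777).

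**Figure D2:**
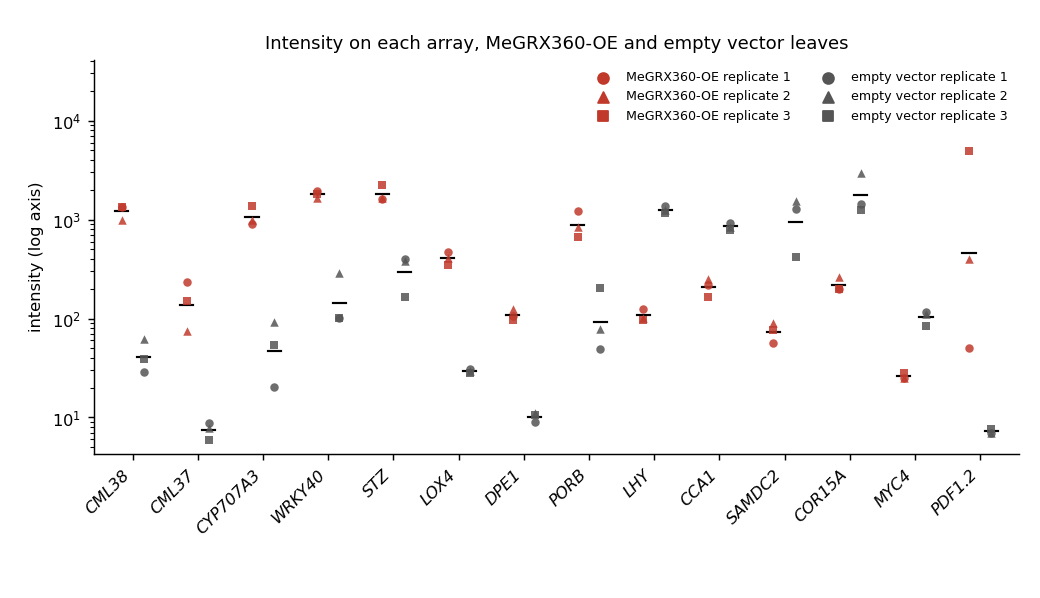
Intensity of 14 genes (log axis) on each MeGRX360-OE array (red) and each empty vector array (grey), with the geometric mean of each group as a bar. For all 14 genes the groups do not overlap, as for 35.4% of all probe sets, and some were named on that condition. The PDF1.2 values of the MeGRX360-OE lines run from 50.9 to 4902.

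Genes that respond within minutes to touch, wounding or elicitors rose together. Of 26 genes on that list 11 had a named probe set, and 8 of them rose, none fell and 3 did not pass, with a median of 1.99 (with platform names alone, 5 of 7 rose, median 2.63). Of all probe sets 6.74% were higher, and of those named only through the table of the study 28.4%. CML38 was at 1334, 991 and 1338 in MeGRX360-OE and at 29.1, 62.3 and 38.7 in vector leaves. CML37 was at 233, 74.8 and 150 against 8.82, 7.84 and 5.92. In both genes the lowest line was above the highest vector array, and line 11 was the lowest of the lines. The ubiquitin ligase PUB23, which dampens immune and drought responses, rose by 3.80 (SE 0.30, adjusted p = 2.28e-04), and its relative PUB22 rose by 1.99 (SE 0.23). The zinc finger factors ZAT12† and STZ rose by 3.36 (SE 0.35) and 2.63 (SE 0.32). The kinase MPK3† and the NADPH oxidase RBOHD† rose by 1.52 (SE 0.15) and 1.29 (SE 0.25). PUB24 (0.91), AZF2† (0.85) and CML39 (0.43) did not pass, with adjusted p of 0.0928, 0.0904 and 0.165. PUB24 passed without vector replicate 1 (adjusted p = 0.0387) and AZF2 with a replicate block (adjusted p = 0.0307).

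WRKY and ERF transcription factors, which act downstream of such signals, were mostly higher. Of 20 WRKY genes listed 13 were measured, 9 rose and 1 fell (median 1.77; with platform names alone 3 of 5 rose and 1 fell, median 1.00). Over all probe sets 6.74% were higher and 9.72% lower. WRKY40† was at 1924, 1662 and 1803 in MeGRX360-OE and at 102, 290 and 101 in vector leaves (3.64, SE 0.39, adjusted p = 7.90e-04). WRKY22, of the flagellin response, was at 122, 175 and 176 against 12.3, 12.0 and 17.2 (3.51, SE 0.21). WRKY33†, which controls camalexin synthesis, rose by 3.01 (SE 0.29). WRKY53, a regulator of senescence and defence, was at 381, 223 and 438 against 37.4, 54.7 and 42.8 (2.91, SE 0.25). WRKY1 was the single member lower, at 116, 103 and 96.8 against 153, 165 and 130 (-0.50, SE 0.12, adjusted p = 0.0265), a call lost without MeGRX360-OE replicate 2 or 3 or vector replicate 1 or 2 and with a trended prior (adjusted p up to 0.102). WRKY18† was at 163, 203 and 133 against 172, 36.4 and 17.9, so that vector replicate 1 lay within the range of the lines, and it did not pass (adjusted p = 0.151) except without that array (adjusted p = 0.0117). The 3 measured ERF factors of 13 listed, ERF104†, ERF1A† and ERF105†, rose by 3.54 (SE 0.27), 2.53 (SE 0.19) and 2.41 (SE 0.31). No listed ERF factor had a platform name, and 28.4% of all probe sets named through the table of the study were higher. The direction of these ERF factors is therefore no independent evidence.

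Jasmonate synthesis genes were mostly higher. The 3 measured jasmonate and ethylene outputs did not pass, although PDF1.2 and PDF1.2b were above every vector array in each line. Of the 4 genes measured of 17 on the list of JA synthesis and breakdown, 3 rose (median 2.06; with platform names alone 1 of 2, median 0.16). Higher calls made up 6.74% of all probe sets and 28.4% of those named only through the table of the study. LOX4†, a 13-lipoxygenase, was at 469, 406 and 350 in MeGRX360-OE and at 30.6, 29.8 and 28.4 in vector leaves (3.78, SE 0.25, adjusted p = 1.28e-04). AOC3†, an allene oxide cyclase, rose by 2.16 (SE 0.34), and OPCL1, a ligase that precedes beta-oxidation of the precursor, rose by 1.96 (SE 0.27). JMT, which methylates jasmonate, was at 7.88, 29.2 and 19.7 against 59.7, 86.5 and 26.7 (-1.64, adjusted p = 0.0745), with overlapping groups, and passed without vector replicate 3 (adjusted p = 0.0345). The bHLH factor MYC4, an activator of JA responses, was at 25.1, 24.9 and 28.4 against 117, 112 and 84.3, a fall of 1.99 (SE 0.27, adjusted p = 0.00185). Its relative MYC3 (-0.17) and the repressor gene JAZ9† (0.42) did not pass.

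The defensin gene PDF1.2, the standard marker of combined JA and ET signalling, was at 50.9, 401 and 4902 in lines 5, 11 and 20, and at 7.03, 7.04 and 7.61 in vector leaves. Every line was above every vector array, but the lines differed from each other about as much as from the vector plants. The difference of 6.01 (SE 2.43) did not pass (adjusted p = 0.14). That SE also holds the spread of the MeGRXC15-OE arrays, at 3410, 5617 and 7.89. PDF1.2b followed the same order of lines, at 341, 1280 and 6044 against 39.1, 27.7 and 32.3 (5.40, SE 1.80, adjusted p = 0.0782). Its probe set can also bind related defensin transcripts, so the pair is not a pair of separate readings. Both passed with array quality weights and in a fit of the 6 arrays alone, where PDF1.2 had adjusted p of 0.0143 and 0.0354. THI2.1, a thionin gene, was at 7.35 to 11.1 over both groups (-0.24, adjusted p = 0.36).

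Among the CC-type GRXs of Arabidopsis itself, 1 rose, 1 fell and 16 of the 18 measured did not pass (21 listed, median 0.61). These counts are near the shares over all probe sets, 6.74% higher and 9.72% lower. GRXC11 (AT3G62950) was at 145, 517 and 324 in MeGRX360-OE and at 58.8, 55.5 and 118 in vector leaves (1.99, SE 0.57, adjusted p = 0.0451). It did not pass without MeGRX360-OE replicate 2 or 3 or vector replicate 1 or 2 (adjusted p up to 0.144), nor with a replicate block (adjusted p = 0.0621). GRXS9 (AT2G30540) was at 16, 34.3 and 19.7 against 103, 97 and 112 (-2.23, SE 0.32, adjusted p = 0.00255), with well separated groups. GRXC9 (GRX480), the member that represses PDF1.2 when overexpressed, was at 321, 60.1 and 187 against 107, 32.5 and 21.9 (1.85, SE 0.72, adjusted p = 0.125). The groups overlapped, and it passed without MeGRX360-OE replicate 2 (adjusted p = 0.0459). GRXS13† was at 290, 182 and 172 against 87.3, 7.91 and 28.8 (2.94, SE 1.06, adjusted p = 0.0982), and passed in the fit of the 6 arrays alone (adjusted p = 0.0494). GRXS1 was at 15.2, 126 and 29.3 against 288, 155 and 298 (-2.63, adjusted p = 0.0748), and passed without MeGRX360-OE replicate 2 (adjusted p = 0.0255). GRXS3, GRXS4, GRXS5 and GRXS8, a cluster of near-identical genes whose probes may share transcripts, had the same order of lines. GRXS4 was at 29.8, 532 and 82.4 in MeGRX360-OE and at 43.9, 38.2 and 48.4 in vector leaves, and GRXS5 at 17.8, 444 and 105 against 29.0, 29.9 and 55.4. Line 11 was the highest and line 5 the lowest in all 4, and none passed (adjusted p = 0.232 to 0.945). GRXS3 did pass with array quality weights (adjusted p = 0.0333). In MeGRXC15-OE leaves replicate 2 was also the highest for GRXS4 (129, 520 and 31.7), GRXS5 (277, 443 and 44.8) and GRXS8 (110, 195 and 26.3). The floral members ROXY1 and ROXY2 were at 15.2 to 16.9 and 22.0 to 40.1 in the lines, with differences of 0.09 and 0.93 that did not pass, though ROXY2 did in the fit of the 6 arrays alone (adjusted p = 0.037). The 5 measured GRXs of other types, GRXC1, GRXC2, GRXC3, GRXC4 and GRXS12, lay between -0.14 and 0.62 and did not pass. None of the 10 TGA factors listed had a probe set with a name.

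**Figure D3:**
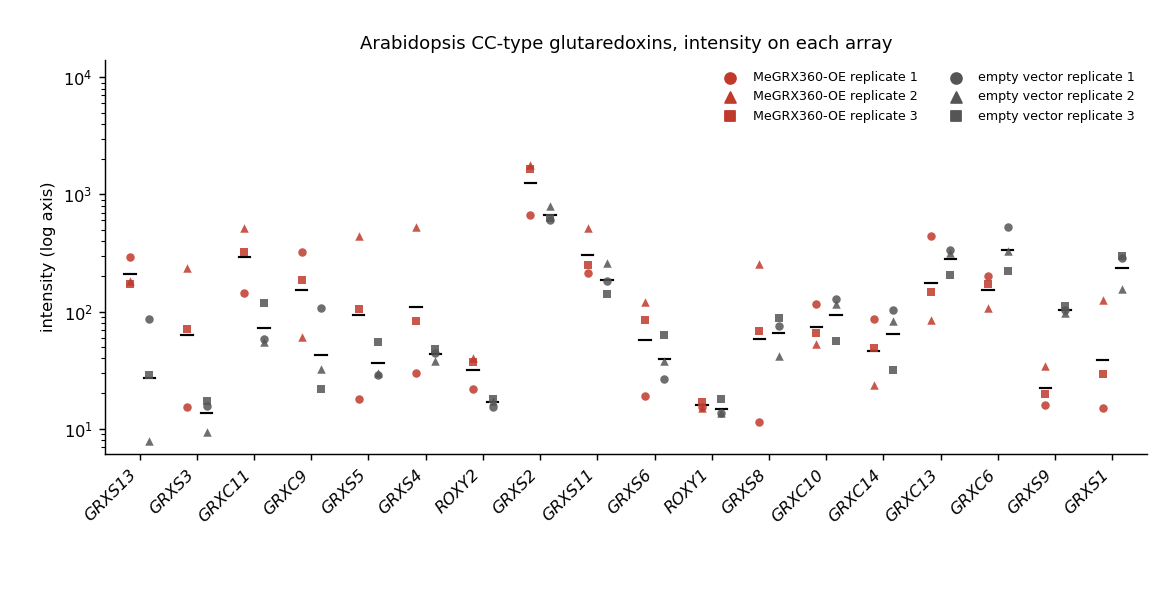
Intensity (log axis) of the 18 measured Arabidopsis CC-type glutaredoxins on each MeGRX360-OE array (red) and empty vector array (grey), ordered by log2 fold change, with geometric means as bars. GRXS9 separates clearly, while GRXS3, GRXS4, GRXS5 and GRXS8 are highest in replicate 2 (line 11) of MeGRX360-OE.

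Clock genes changed in opposite directions by phase. LHY† and CCA1†, the MYB factors that peak at dawn, were at 126, 102 and 96.0 against 1376, 1239 and 1154, and at 220, 250 and 166 against 929, 843 and 793. The differences were -3.55 (SE 0.19, adjusted p = 5.00e-05) and -2.03 (SE 0.28). The related RVE8† fell by 1.60 (SE 0.20), and PRR7†, a repressor of both that peaks later in the morning, rose by 1.08 (SE 0.14). Those are the 4 measured of 10 listed morning genes. Of the evening list 3 of 9 were measured. PRR5† and GI rose by 1.65 (SE 0.22) and 1.23 (SE 0.24), and PRR3† did not pass (0.35, adjusted p = 0.401). GI, the only one of these 7 with a platform name, was at 154, 141 and 139 against 72.2, 71.9 and 45.6. Of the clock outputs, the RNA-binding protein gene GRP7† was at 1958, 647 and 945 against 116, 116 and 101 (3.26, SE 0.37), and CHE†, a repressor of CCA1, at 248, 326 and 255 against 36.2, 72.3 and 96.4 (adjusted p = 0.00481). COL1† fell by 1.77 (SE 0.46, adjusted p = 0.0315), a call lost without MeGRX360-OE replicate 2 or 3 or any 1 vector replicate (adjusted p up to 0.103). These transcripts follow the hour of the day, and no source used here says whether both groups were taken at the same hour, so that hour and construct cannot be told apart for these genes.

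Genes of drought and cold protection were lower or did not pass, and none rose. Of 19 listed 8 were measured, and 4 fell (median -1.79; with platform names alone 1 of 4 fell, median 0.24). Lower calls made up 9.72% of all probe sets and 39.1% of those named only through the table of the study. COR15A, a protein that protects chloroplast membranes in the cold, was at 199, 262 and 199 in MeGRX360-OE and at 1435, 2981 and 1262 in vector leaves (-3.01, SE 0.71, adjusted p = 0.0207). All 3 lines were below every vector array, but without MeGRX360-OE replicate 1 or 3 or vector replicate 1 or 2 it did not pass (adjusted p up to 0.0804). HVA22D† fell by 1.97 (SE 0.36), P5CS1†, of proline synthesis, fell by 1.96 (SE 0.41), and GOLS1†, of raffinose synthesis, fell by 1.61 (SE 0.46). GOLS1 did not pass without MeGRX360-OE replicate 2 or 3 or any 1 vector replicate (adjusted p up to 0.132). RD22† was at 420, 1177 and 964 against 2700, 3283 and 3328 (-1.98, adjusted p = 0.0551), and passed in the fit of the 6 arrays alone (adjusted p = 0.0134). The dehydrin genes COR47 and XERO2 were higher by 0.86 and 1.36 without passing. HB-12†, an ABA-induced homeodomain factor and the single measured regulator of 11, was at 164, 83.9 and 137 against 1491, 1039 and 556 (-2.94, SE 0.47, adjusted p = 0.00383). Of the ABA metabolism list 2 of 10 were measured. Beside the rise of CYP707A3†, ABA1†, an epoxidase of ABA synthesis, was at 1690, 1876 and 1978 against 3869, 3668 and 3402 (-0.98, SE 0.20, adjusted p = 0.0126). None of the 20 listed ABA signalling genes had a probe set with a name.

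Antioxidant and thiol genes changed in both directions. Of 27 listed 7 were measured, with 2 higher and 3 lower (median -0.19; with platform names alone 0 of 5 rose and 3 fell, median -0.80). Over all probe sets 6.74% were higher and 9.72% lower, and of those named only through the table of the study 28.4% and 39.1%. The 2 that rose were the catalase genes CAT1†, from 62.2 to 66.2 in vector leaves to 492, 347 and 314 in the lines (2.55, SE 0.22), and CAT3† (1.41, SE 0.26). Both were named only through the table of the study, and CAT2 had no named probe set. The glutathione reductases fell. GR1, the cytosolic and peroxisomal form, was at 293, 394 and 400 against 1090, 1083 and 752 (-1.42, SE 0.20, adjusted p = 0.00229), and GR2, the organellar form, at 317, 445 and 477 against 647, 751 and 728 (-0.80, SE 0.17). The stromal ascorbate peroxidase gene SAPX was lower by 1.31 (SE 0.29), while the thylakoid form TAPX (0.20) and NTRC (-0.19) did not pass. Without vector replicate 2, GR2 and SAPX did not pass (adjusted p = 0.0603 and 0.0617), and SAPX also not without vector replicate 1 (adjusted p = 0.0568).

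In primary metabolism the largest changes were in starch and sugar genes. All 4 measured of 14 listed passed, in both directions. DPE1, the plastid disproportionating enzyme of starch breakdown, was at 105, 125 and 95.6 against 9.05, 11 and 10.5, a rise of 3.41 (SE 0.17, adjusted p = 3.07e-05). STP1†, a monosaccharide importer, was at 2256, 2051 and 1458 against 219, 125 and 462 (3.02, SE 0.48). APL3, of starch synthesis, and BAM3†, the main leaf beta-amylase, were lower by 1.66 (SE 0.44) and 1.65 (SE 0.37). Neither passed without vector replicate 1 or 2, and APL3 not without MeGRX360-OE replicate 2 or 3, with a replicate block or in a fit of the 6 arrays alone (adjusted p up to 0.113). Of 36 photosynthesis genes listed only 6 were measured, with a median of -0.41. Under photosynthesis in the GO table of the study, chosen on MeGRXC15-OE, 3 of 17 probe sets rose and 6 fell. Over all probe sets of the whole GO lists 31.7% were higher and 37.4% lower, and over all probe sets tested 6.74% and 9.72%. On the list SBPASE (-0.73, SE 0.18), HPR (-0.54, SE 0.12) and PRK (-0.51, SE 0.13) passed, each with 3 lines below every vector array. None of the 3 passed without MeGRX360-OE replicate 3 or without vector replicate 1 or 2 (adjusted p up to 0.101). PRK and SBPASE also missed the threshold without MeGRX360-OE replicate 1, and PRK and HPR without vector replicate 3. The antenna genes LHCB4.1 and LHCB4.2 did not pass. Of 3 chlorophyll genes measured of 13 listed, 1 passed. PORB, which makes chlorophyllide in the light, was at 1233, 837 and 660 against 49.6, 78.6 and 205 (3.24, SE 0.51, adjusted p = 0.00374). GUN4†, which promotes magnesium insertion in chlorophyll synthesis, went the other way, at 1168, 1312 and 1047 against 2415, 2818 and 2850 (-1.20, SE 0.35). Its groups did not overlap, and it did not pass (adjusted p = 0.0506) but did in 4 alternatives, among them the fit of the 6 arrays alone (adjusted p = 0.00207).

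Secondary metabolism genes that passed were lower, 2 of 5 measured for phenylpropanoids (18 listed) and 2 of 4 for glucosinolates (26 listed). With platform names alone, 0 of 2 and 1 of 3 fell. Of all probe sets 9.72% were lower, and of those named only through the table of the study 39.1%. 4CL1†, which activates cinnamic acids for lignin and flavonoids, was at 201, 331 and 300 against 1056, 1127 and 1084 (-2.0, SE 0.22, adjusted p = 7.76e-04). PAL1† was lower by 1.64 (SE 0.46, adjusted p = 0.0407), a call lost without MeGRX360-OE replicate 3 or any 1 vector replicate, with a replicate block and in the fit of the 6 arrays alone (adjusted p up to 0.14). MYB28†, the regulator of aliphatic glucosinolates, was at 94.2, 119 and 161 against 299, 322 and 270 (-1.28, SE 0.25, adjusted p = 0.00989). UGT74C1, a glucosyltransferase of the same pathway, was lower by 1.25 (SE 0.34, adjusted p = 0.0397), a call lost with a replicate block and without any 1 of the 6 arrays other than MeGRX360-OE replicate 2 (adjusted p up to 0.107). In the opposite direction, APS3, of sulfate assimilation, was higher by 1.24 (SE 0.27, adjusted p = 0.016), and it did not pass without MeGRX360-OE replicate 2 or 3 or vector replicate 1 or 2 (adjusted p up to 0.0646). Of single list members, BAP1†, an inhibitor of cell death, rose by 4.05 (SE 0.37). The wall-loosening expansin gene EXPA8 was at 969, 911 and 710 against 27.6, 73.8 and 170 (3.61, SE 0.57, adjusted p = 0.0038).

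**Figure D4:**
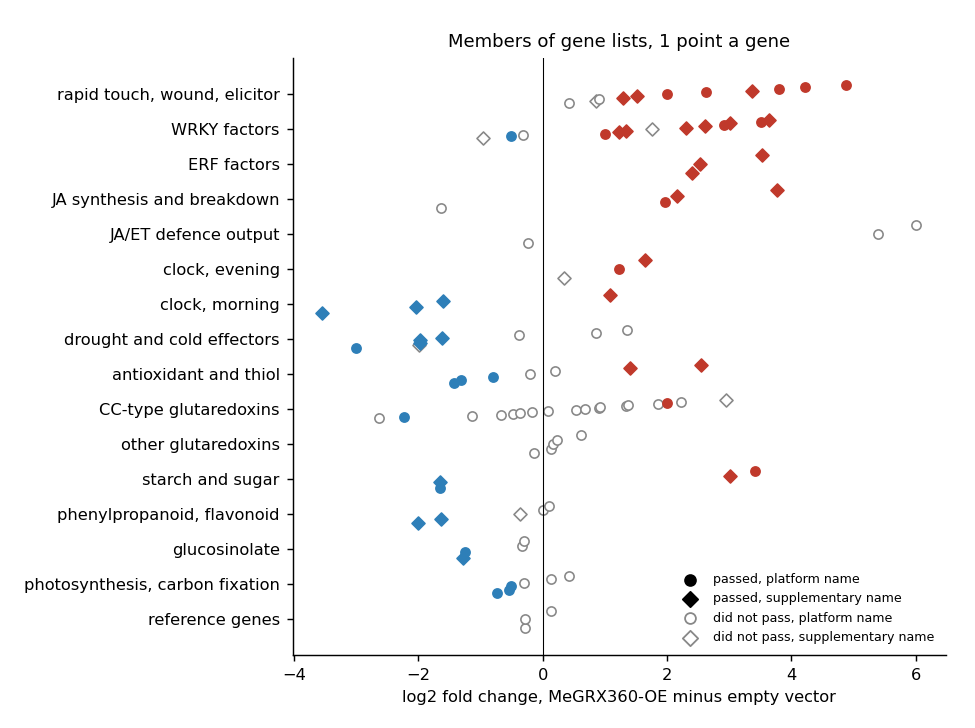
Log2 fold change (MeGRX360-OE minus empty vector, x axis) of each measured gene of 16 lists (y axis). Filled points passed the test, and diamonds are genes named only through the table of the study. Rapid-response, WRKY and ERF genes lie mostly to the right, and drought and cold effectors and morning clock genes mostly to the left. Most glutaredoxins are open symbols, and of all probe sets only 16.5% passed.

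The GO lists of the study were read on these arrays as well. They were chosen on MeGRXC15-OE and the same vector arrays, so their directions are no independent evidence, and over all probe sets of the 59 whole lists 69.1% passed, 31.7% higher and 37.4% lower, with a median of -0.39. Lists of protein synthesis and folding were lower. Under rRNA processing 18 of 19 probe sets fell and none rose (median -1.52). The pseudouridine synthase gene NAP57† was at 214, 80.6 and 91.1 in MeGRX360-OE and at 466, 483 and 627 in vector leaves (-2.16, SE 0.35), and IMP4, of small-subunit processing, at 43.2, 34.6 and 38.3 against 116, 93.7 and 122 (-1.51, SE 0.17). These falls stand beside the higher 25S rRNA signal given above. Under translational elongation all 10 fell (median -0.95), and 6 did without MeGRX360-OE replicate 1. Under protein folding 22 of 33 fell and 6 rose (median -1.73), and 3 rose without that replicate. HSP81-2†, a cytosolic HSP90, was at 557, 275 and 306 against 2949, 2946 and 1735 (-2.78, SE 0.69), a call lost without MeGRX360-OE replicate 2 or 3 or vector replicate 1 or 2 (adjusted p up to 0.0882), and CPN10†, a mitochondrial co-chaperonin, at 291, 317 and 297 against 1454, 1333 and 1534 (-2.25, SE 0.22, adjusted p = 5.57e-04).

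Under cellular response to phosphate starvation 9 of 11 fell and 2 rose (median -1.44), the latter being probe sets of CAT1† and CAT3†. SQD1† and SQD2†, of sulfolipid synthesis, fell by 2.02 (SE 0.18) and 1.72 (SE 0.23), and the phosphate exporter PHO1† fell by 1.66 (SE 0.17). Under lipid transport 5 of 12 fell (3 without MeGRX360-OE replicate 1, where 1 rose) and none rose. Lists of defence and traffic were higher. Under innate immune response 15 of 17 rose and none fell (median 1.69), 10 of them platform-named loci with rises of 0.96 to 2.16, of which AT1G72920 was at 265, 246 and 330 against 77.4, 82.6 and 37.8 (2.16, SE 0.31). Under protein ubiquitination 9 of 10 rose (median 1.54), and under vesicle-mediated transport 11 of 13 (median 0.96). The plasma membrane syntaxin gene SYP122†, of defence secretion, was at 892, 728 and 899 against 62.9, 71.2 and 82.3 (3.54, SE 0.16, adjusted p = 1.96e-05). Under carbohydrate transport 8 of 11 rose and 2 fell, among them PMT6† (3.69, SE 0.54) and STP14† (3.14, SE 0.48). Under cell redox homeostasis 3 of 26 rose, 8 fell and 15 did not pass (median 0.01).

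The lines varied most in a small set of genes. A log2 SD over 1 among the 3 arrays was found for 253 probe sets in MeGRX360-OE and 255 in vector leaves, and the median SD was 0.17 and 0.14. The 12 named probe sets with the largest SD, chosen after their values were seen, did not pass against vector. PDF1.2 was first (SD 3.3), and 3 CC-type GRXs, GRXS5 (2.32), GRXS8 (2.25) and GRXS4 (2.11), were among them. AMY1, an alpha-amylase gene, was at 739, 18.1 and 58.9 (SD 2.73), and the chitinase gene CHI at 302, 13.4 and 27.5 (SD 2.35), both highest in line 5, and both also highest in replicate 1 of the vector (150 and 619). SPL4†, a flowering-time factor, was highest in line 11 (424, SD 2.24), and AT3G16670 at 40.5, 334 and 1022, highest in line 20. Of the 12, line 5 was highest in 5, line 11 in 4 and line 20 in 3, so no single line stood apart in all.

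The test of MeGRX360-OE against MeGRXC15-OE asks which genes differed between leaves of both constructs. It called 33 probe sets (0.145%), 20 higher (0.0879%) and 13 lower (0.0572%) in MeGRX360-OE, against 3076 (13.5%) at an unadjusted p under 0.05 and 3708 (16.3%) whose arrays did not overlap. With 1 array left out the count ran from 4, without MeGRX360-OE replicate 2 or 3, to 177, without MeGRXC15-OE replicate 2 (141 without MeGRX360-OE replicate 1, and 16 without MeGRXC15-OE replicate 1 or 3), and with array quality weights it was 530. The median SE of a difference was 0.15, and a missed threshold does not show equal levels. In 28 of the 33 both groups were on the same side of vector, and in 30 MeGRX360-OE lay closer to vector than MeGRXC15-OE did. None of the 12 largest rises against vector and 2 of the 12 largest falls, AT4G30450 and LHY†, differed between the constructs. Both constructs were set against the same vector arrays.

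AT5G59060 was the one of the 10 genes named from this test whose level in MeGRXC15-OE was that of the vector plants. It was at 22.0, 19.6 and 22.4 in MeGRX360-OE, at 7.5, 8.64 and 6.85 in vector and at 7.56, 6.91 and 8.07 in MeGRXC15-OE leaves, a difference between constructs of 1.5 (SE 0.12, adjusted p = 0.00634). AT4G30450 was farther from vector in MeGRX360-OE, at 37.3 to 48.7 against 105 to 176 in MeGRXC15-OE (-1.80, SE 0.20, adjusted p = 0.0209). LHY† was less reduced, at 96.0 to 126 against 31.8 to 51.7 (1.49, SE 0.19, adjusted p = 0.0482). WRKY53 rose less, at 223 to 438 against 1006 to 1195 (-1.74, SE 0.25, adjusted p = 0.0482). None of AT4G30450, LHY and WRKY53 passed this test without MeGRX360-OE replicate 2 or 3 or without MeGRXC15-OE replicate 3 (adjusted p up to 0.162), nor AT4G30450 and WRKY53 without MeGRXC15-OE replicate 1. WRKY53 also did not pass with a replicate block (adjusted p = 0.0812) or after centring (adjusted p = 0.051). AT1G76240 was at 80.4, 109 and 88.1 in MeGRX360-OE, at 55.9, 65.3 and 79.6 in vector and at 24.7, 24 and 25 in MeGRXC15-OE leaves (1.90, SE 0.16, adjusted p = 0.00634), so the groups did not overlap but MeGRX360-OE did not pass against vector (adjusted p = 0.0765) except without vector replicate 3 (adjusted p = 0.039) or with array quality weights. AT5G66650 was at 26.1 to 36.7 against 108 to 127 in MeGRXC15-OE (-1.96, SE 0.15, adjusted p = 0.00634). AT5G59060, AT1G76240 and AT5G66650 passed in every alternative that tested them. EXPA8, at 52.2 to 110 in MeGRXC15-OE, had the largest difference among the list members described, 3.59, and did not pass (adjusted p = 0.059).

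**Figure D5:**
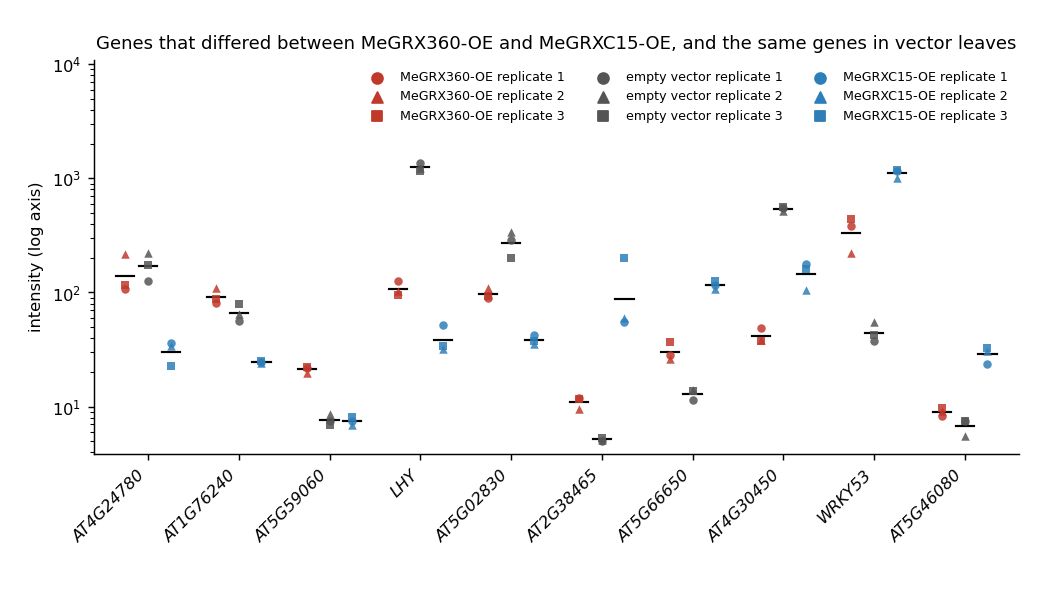
Intensity (log axis) on each array of MeGRX360-OE (red), empty vector (grey) and MeGRXC15-OE (blue) for the 10 named genes that differed between the constructs, with geometric means as bars. AT5G59060 is raised in MeGRX360-OE only, AT4G30450 is lowest in MeGRX360-OE, and the others lie closer to vector in MeGRX360-OE than in MeGRXC15-OE.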

How the data were processed

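Total RNA of mature leaves was hybridized to ATH1 arrays, 1 array a sample. The authors deposited 1 intensity per probe set, 22810 in all, normalized and on a linear scale. Per the submitters' notes RMA was used. The sources used here name no version of it and do not say how its values were brought to a linear scale. The table holds no columns of the authors' own comparisons. Log2 was taken, and 64 control probe sets were left out of the tests. A model with 1 mean per group was fitted with limma 3.58.1 (R 4.3.3) to 22746 probe sets over all 9 arrays, with 6 residual and 2.76 prior degrees of freedom. Tests were two-sided, with Benjamini-Hochberg adjustment over all probe sets.

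Of 22810 probe sets 13513 had 1 gene in the platform annotation, 503 several and 8794 none. The GO table of the study named 363 more. Where both sources name a probe set (96), the locus matched in 94. Of 579 listed genes 146 had a named probe set, and the brightest probe set stood for its gene. The genes named were the 12 largest rises and 12 largest falls with 1 gene name and no overlap of arrays, the 5 largest each way against MeGRXC15-OE, and up to 6 members a list. MPK3, RBOHD, PUB24, AZF2, CML39, WRKY1, WRKY18, COR47, NTRC, further GRXs, the genes of the GO lists and the most variable genes were added after their values were seen, as was the count of GO list members without MeGRX360-OE replicate 1. Members and lists were chosen with earlier results of these data known.

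In simulated arrays of 22746 probe sets, drawn around the vector means with the spread within MeGRX360-OE and vector, 60 of 100 changes of 1 (log2) were called, 86 of 100 changes of 2 were called, and 9 calls were false. Far fewer probe sets were changed there than the 3746 called in the data, so these shares do not carry over to them. Alternatives were a replicate block, quantile normalization, centring, array quality weights, a filter that dropped the dimmest 40% of probe sets, the 6 arrays alone, a prior variance with a trend, fold thresholds, platform names alone and leaving out each array. Python 3.11.15, pandas 2.3.3, numpy 2.4.6 and matplotlib 3.10.9 were used. No coordinates are given because no genome build is named.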

Additional observations from a re-analysis of the deposited data

Results flagged for a closer look

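The test between constructs marked 10 of the named genes, as log2 differences of MeGRX360-OE minus MeGRXC15-OE. Higher in MeGRX360-OE were AT4G24780 (2.21), AT1G76240 (1.90), AT5G59060 (1.5), LHY (1.49) and AT5G02830 (1.35). Lower were AT2G38465 (-2.99), AT5G66650 (-1.96), AT4G30450 (-1.80), WRKY53 (-1.74) and AT5G46080 (-1.68). With MeGRX360-OE replicate 2 or 3 left out, 7 of them, all but AT1G76240, AT5G59060 and AT5G66650, no longer passed (limma adjusted p up to 0.196). The 25S rRNA control probe set, which is outside the main measurement, had a mean intensity of 985 in MeGRX360-OE, 546 in MeGRXC15-OE and 324 in vector leaves, 3.04 times the vector level in MeGRX360-OE. Its part in the other results was not tested.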

How the results depend on the processing

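The counts of named genes here leave out genes added after their values were seen and, against vector, genes named only from the test between constructs. Within that set, no value of a gene that passed changed direction under the alternatives run. Of its 81 probe sets that passed against vector, 61 passed in every alternative. Of its 57 that did not pass, 16 did so in some. Of those 57, 12 changed sign in at least 1 alternative, without passing in it. With 1 array left out, GH3.3 ran from -0.20 to 0.29, GRXC3 from -0.018 to 0.32, AER from -0.020 to 0.29, MYC3 from -0.345 to 0.059, DFR from -0.092 to 0.12, PAL2 from -0.69 to 0.03, GH3.5 from -0.33 to 0.44, BCAT4 from -0.62 to 0.36, FAMA from -0.071 to 0.059, TAPX from -0.038 to 0.46, CLV3 from -0.13 to 0.038 and EXPA4 from -0.20 to 0.15. Array quality weights gave -0.094 for DFR, -0.084 for GH3.5, 0.24 for BCAT4 and 0.068 for EXPA4, centring 0.018 for GH3.3, 0.0074 for FAMA and 0.018 for EXPA4, and quantile normalization -0.039 for DFR. Against vector, 3746 calls (1534 higher, 2212 lower) became 5701 with array quality weights (2438 higher), 1963 with a fold over 2 and an unadjusted p under 0.05, and 1713 with a fold over 2 and an adjusted p under 0.05. With 1 array left out they ranged from 2219 to 3147, the higher ones from 907 to 1318 and the lower ones from 1312 to 1829. Such fits hold fewer arrays. The 33 calls between constructs became 21 after centring, 530 with array quality weights and 4 to 177 with 1 array left out. Of list members, 40 rose and 28 fell. With platform names alone, 16 rose and 13 fell, as fewer genes are named, and with 1 array left out 36 to 41 rose and 15 to 24 fell, with 15 without vector replicate 1 or 2 and 18 without MeGRX360-OE replicate 3. With a replicate block, calls against vector numbered 3302, of which 3099 were shared, and those between constructs 25. The pairing check gave correlations of 0.27, 0.21 and -0.21 for arrays of the same number, and -0.41 to 0.23 for arrays of different numbers. With 3 arrays a group these values cannot decide whether the numbers pair the samples. Calls that were higher made up 41.0% of all, 43.6% after quantile normalization and 44.7% after centring. The causes of these shifts were not tested. With 3 arrays a group, a change of 1 (log2) was recovered in 60 of 100 simulated probe sets. Far fewer probe sets were changed there than the 3746 called here, so that share does not carry over to this comparison. Changes of that size can still be missed. Levels near the lowest intensity (3.24) cannot be told from background, for which no detection calls were used here.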
